A study of Mus musculus and Rattus norvegicus with 32 samples.

Results

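Cytosolic ribosomal proteins are the protein subunits of the ribosome that translates nuclear messages. They were taken here as every Affymetrix probe set annotated with a single symbol that starts with Rpl or Rps and a digit, or with Rplp0, Rplp1, Rplp2 or Rpsa. S6 kinases (Rps6k symbols) and symbols of pseudogenes were left out. This gave 49 probe sets for 35 gene symbols among 12422 mouse probe sets, and 60 probe sets for 41 symbols among 8740 rat probe sets. By symbol, 22 mouse probe sets were counted with the large subunit (Rpl, Rplp) and 27 with the small subunit (Rps, Rpsa). In rat 42 and 18 were. Only 16 symbols were present on both arrays, of 60 on either, so the species comparison rests on a minority of the subunits. A further 39 mouse and 40 rat probe sets carry several symbols with a ribosomal protein among them, and they are not members.

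The study gave male B6C3F1 mice and SD rats trichloroethylene (TCE), a chlorinated solvent, by oral gavage at 1500 mg/kg in corn oil, or corn oil alone. Each of the 8 groups had 4 arrays. They were repeated TCE and repeated oil (14 daily doses, 10 weeks of age) and single TCE and single oil (1 dose, 8 weeks of age) in each species. Liver was collected 18 hours after the last dose in every group, and all animals, controls included, were gavaged with corn oil. The labels do not say that each array is an animal of its own, so the p-values measure the spread among these arrays. In whole liver RNA, fewer cells of a type and less RNA per cell cannot be told apart.

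Each ribosome holds about equal numbers of its protein subunits, and animal cells make them together in large amounts. Their messages begin with a run of pyrimidines, the 5' terminal oligopyrimidine (TOP) motif, through which nutrient and mTOR signals govern how well they are translated. The amount of message can therefore stay level while the output of protein changes, and the arrays record only the amount of message. Liver is a tissue with a heavy load of protein synthesis, since it makes most plasma proteins.

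The start of a member gene is shown here for Rpl13a, the member with the firmest rise, and for Rpl7l1, Rps28 and Rps3, which were lower after repeated doses. The sequences come from RefSeq, mouse build GRCm38.p6, and all 4 lie on the minus strand. Each runs 5' to 3' over the 60 bases before and the first 30 bases of the annotated gene. Rpl13a lies at chr7:45128716-45128805, Rpl7l1 at chr17:46782627-46782716, Rps28 at chr17:33824533-33824622 and Rps3 at chr7:99483680-99483769. Capitals mark runs of 8 or more C or T bases on the gene's strand and the letters CCGGAAG on either strand, the core of a motif bound by ETS factors.
Rpl13a: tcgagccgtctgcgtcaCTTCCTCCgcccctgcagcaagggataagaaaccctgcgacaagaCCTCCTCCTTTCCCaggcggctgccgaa
Rpl7l1: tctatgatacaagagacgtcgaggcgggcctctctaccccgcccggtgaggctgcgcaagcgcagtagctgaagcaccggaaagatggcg
Rps28: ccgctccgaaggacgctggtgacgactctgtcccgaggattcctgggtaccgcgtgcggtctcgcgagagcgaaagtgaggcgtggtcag
Rps3: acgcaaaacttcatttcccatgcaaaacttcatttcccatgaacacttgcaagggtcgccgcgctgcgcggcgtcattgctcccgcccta
Among these 4 windows, Rpl13a alone holds such runs, the longer of them 14 bases just past the annotated start. Of the 35 mouse symbols, 28 matched a RefSeq promoter entry. A run of 8 or more C or T bases lay in the 90-base window of 13 of these 28 genes (46.4%), against 33.4% of all 27025 genes in the table. CCGGAAG lay there on either strand in 9 of 28 (32.1%), against 5.42% of all genes, and the match on the opposite strand can overlap a C or T run. These matches describe the letters in the windows and are not evidence of a bound factor.

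All values are ratios. In the deposited tables the median of each species' and schedule's 4 oil arrays is 1, so the oil groups sit at 1 by construction and no signal level remains. Changes are log2 differences, TCE minus oil, from limma fitted to all probe sets of a species, and a change was called at an adjusted p under 0.05. Ribosomal protein probe sets were measured more tightly than most. Their median standard error was 0.20 in mouse, against 0.29 over all mouse probe sets, and 0.21 in rat, against 0.32 over all rat probe sets. The control probe sets for the ends of the Gapdh message, a measure of RNA quality, differed in mean between TCE and oil: the 3' minus 5' log2 value was 1.04 ± 0.94 in repeated TCE and 0.25 ± 0.81 in repeated oil mice, and 1.51 ± 0.95 in single TCE and -0.03 ± 0.17 in single oil mice (SD, n = 4 each). In rat it was 1.20 ± 0.78 in repeated TCE and 0.12 ± 0.33 in repeated oil, and 0.26 ± 1.14 in single TCE and -0.04 ± 0.18 in single oil. By an exact two-sided permutation test on 4 against 4 arrays, whose smallest possible p is 0.0286, p was 0.371 for mouse repeated, 0.0571 for mouse single, 0.0571 for rat repeated and 0.886 for rat single, so none passed. The same measure for beta-actin was 0.64 ± 0.39 in repeated TCE and -0.08 ± 0.26 in repeated oil mice (exact permutation p = 0.0571), and 0.74 ± 0.43 in single TCE and -0.02 ± 0.12 in single oil mice (0.0286, the smallest possible). In rat its p was 0.229 after repeated doses and 0.857 after 1 dose. A value above 1 was found on 3 of 4 TCE arrays in each mouse schedule, on 1 mouse repeated oil array, and on 2 repeated and 1 single TCE arrays in rat.

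The mouse after repeated doses was the setting with the most ribosomal protein calls. Of 49 probe sets, 9 fell and 1 rose. The background in this comparison was 8.48% of all probe sets lower and 2.24% higher, and 18.4% of the members were lower. The median change was -0.25 over the members, against -0.15 over all probe sets, and 65.3% of the members lay below 0, against 61.0% of all. The falls were small: apart from Rpl7l1 and Rpl10a, every called fall was less than 0.80 on the log2 scale. The large subunit had 3 lower and 1 higher of 22, and the small subunit 6 lower and 0 higher of 27. The several-symbol probe sets, which are not members, had 10 lower and 0 higher of 39, with a median of -0.28.

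This count changed with how the arrays were scaled to each other. After each array was centred on its own median, 2 members were lower and 1 higher, against 4.07% lower and 3.82% higher of all probe sets. After quantile normalization no member was called, and of all 12422 probe sets only 0.0483% were higher and 0.00805% lower. Leaving out 1 array at a time gave 3 to 9 calls, fewest without TCE replicate 2. The calls fell to 5 without TCE replicate 3, to 6 without TCE replicate 4, and to 6, 4 and 5 without oil replicates 1, 2 and 3. With the Gapdh 3' minus 5' value as a covariate, 8 members were lower and 1 higher. Without the arrays whose Gapdh value exceeded 1, which leaves 1 TCE array, no member was called and the median change was -0.07.

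**Figure D1:**
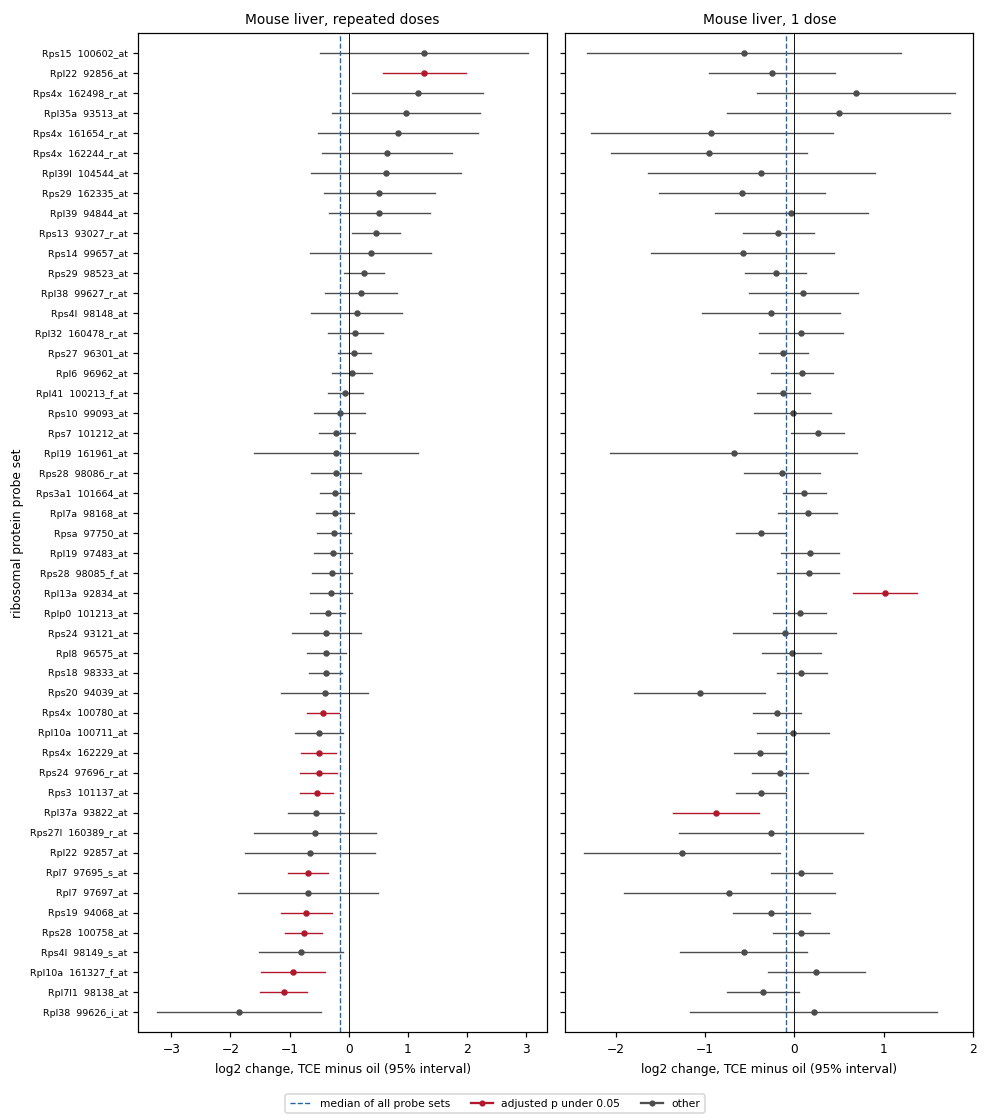
Log2 change with TCE relative to oil for the 49 mouse ribosomal protein probe sets, after repeated doses (left) and after 1 dose (right), with 95% limma intervals, sorted by the repeated-dose change. Red marks an adjusted p under 0.05, and the dashed line is the median of all mouse probe sets (-0.15 repeated, -0.09 single). The 9 red probe sets below 0 on the left are the called falls, while Rpl13a stands alone at 1.02 on the right.

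Among the called members with an Rpl symbol, Rpl7l1 fell most. It is a paralogue of Rpl7 and is a member by its symbol alone, so its fall is not that of a known subunit. Its probe set 98138_at read 0.425, 0.484, 0.517 and 0.418 in the 4 repeated TCE arrays, against 0.856, 0.963, 1.08 and 1.04 in repeated oil. The groups did not overlap, and every TCE array lay below every oil array by a wide margin. The change was -1.10 ± 0.19 (SE, limma adjusted p = 0.00408). After 1 dose the same probe set gave 1.06, 0.592, 0.693 and 0.801 in TCE and 0.793, 0.922, 1.08 and 1.18 in oil, which overlap, and the change of -0.35 was not called. This call stayed under 0.05 in all 8 fits that left out 1 array (adjusted p 0.00584 to 0.0141) and after median centring (0.0105), but not after quantile normalization (0.273).

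Rpl7 itself, a large subunit protein with many processed copies in the genome, read 0.496, 0.626, 0.655 and 0.737 on probe set 97695_s_at in repeated TCE and 1.11, 1.02, 0.914 and 0.977 in repeated oil. The groups were separate, with a change of -0.69 ± 0.16 (limma adjusted p = 0.0161). The second Rpl7 probe set, 97697_at, had a mean of 0.589 ± 0.391 in repeated TCE and 0.927 ± 0.433 in repeated oil (SD, n = 4 each), a spread too wide to tell the groups apart. Rpl10a, another large subunit protein, fell on probe set 161327_f_at, with 0.514, 0.397, 0.493 and 0.689 in repeated TCE against 0.834, 1.11, 0.885 and 1.15 in repeated oil (-0.94 ± 0.25, limma adjusted p = 0.0315). Its other probe set, 100711_at, gave -0.50 with an adjusted p of 0.106. Both called probe sets, 97695_s_at and 161327_f_at, carry a suffix that marks possible cross-hybridization or relaxed probe design. After median centring neither Rpl7 (adjusted p = 0.051) nor Rpl10a (0.065) passed. Rpl7 was called in all 8 fits that left out 1 array, and Rpl10a in 3 (lost without oil replicate 2 or 4 or TCE replicate 1, 2 or 3, up to 0.0921).

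Rpl22, an RNA-binding large subunit protein that cells can lack without losing general translation, had probe sets that went opposite ways. On 92856_at the ratios were 2.61, 2.26, 1.75 and 3.18 in repeated TCE and 0.568, 1.73, 0.855 and 1.15 in repeated oil, a rise of 1.27 ± 0.33 (limma adjusted p = 0.0261). The lowest TCE array, at 1.75, was barely above the highest oil array, at 1.73. On 92857_at the ratios were 1.27, 0.244, 0.732 and 0.469 in repeated TCE and 0.378, 0.813, 1.19 and 1.80 in repeated oil, a change of -0.66 ± 0.52 that was not called (adjusted p = 0.443). The direction for Rpl22 is therefore not settled by these arrays. The call on 92856_at was lost in 5 of the 8 fits that left out 1 array, with adjusted p up to 0.0674 (without TCE replicate 1, 2 or 4, or oil replicate 1 or 3).

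Among the called small subunit proteins, Rps28 had the lowest change. Its probe set 100758_at read 0.697, 0.590, 0.492 and 0.578 in repeated TCE and 1.1, 0.992, 0.870 and 1.01 in repeated oil. The groups were far apart, and the change was -0.76 ± 0.15 (limma adjusted p = 0.0072). It passed in all 8 fits that left out 1 array (0.00618 to 0.0228) and after median centring (0.0243). The call was lost after quantile normalization (0.466) and when only the 8 arrays of the comparison were fitted. The other Rps28 probe sets moved less, with changes of -0.28 for 98085_f_at and -0.22 for 98086_r_at, neither called. After 1 dose 100758_at was level, at 1.24, 0.990, 0.933 and 1.06 in TCE and 1.09, 0.964, 0.902 and 1.04 in oil.

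Rps3, which lies at the entry of the message into the small subunit and also takes part in DNA repair, was at 0.793, 0.621, 0.757 and 0.601 in repeated TCE and 1.05, 1.02, 0.951 and 0.975 in repeated oil, a fall of 0.54 on the log2 scale (SE 0.13, limma adjusted p = 0.0201). After 1 dose its ratios were 0.855, 0.750, 0.733 and 0.695 in TCE and 1, 0.899, 0.999 and 1.02 in oil. These groups did not overlap either, but the change of -0.37 ± 0.13 was not called (adjusted p = 0.0932). Rps3 thus read below every oil array of its schedule on all 8 mouse TCE arrays, and the difference between schedules was -0.17 (adjusted p = 0.671). The repeated-dose call was lost without oil replicate 2 or TCE replicate 2 or 4 (up to 0.0604) and with median centring (0.0811).

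Rps19, the protein first linked to Diamond-Blackfan anaemia in humans, read 0.739, 0.5, 0.555 and 0.589 in repeated TCE and 0.861, 1.02, 0.984 and 1.02 in repeated oil (-0.72 ± 0.20, limma adjusted p = 0.0381). Rps24, a small subunit protein also linked to that anaemia, gave 0.670, 0.686, 0.720 and 0.776 on 97696_r_at in repeated TCE and 1.19, 1.05, 0.951 and 0.885 in repeated oil (-0.51 ± 0.14, adjusted p = 0.0377). The groups were separate for both genes, with a narrow gap. Each was called in 2 of the 8 fits that left out 1 array. Rps19 was lost without oil replicate 2, 3 or 4 or TCE replicate 2, 3 or 4 (adjusted p up to 0.105), with median centring (0.0971), the replicate block (0.0654) and the Gapdh covariate (0.0686). Rps24 was lost without oil replicate 1, 2 or 3 or TCE replicate 1, 2 or 3 (up to 0.0892), with median centring (0.132) and the replicate block (0.0636). The second Rps24 probe set, 93121_at, averaged 0.728 ± 0.231 in repeated TCE and 0.924 ± 0.174 in repeated oil (SD, n = 4 each) and the groups overlapped. The called probe set 97696_r_at carries a suffix that marks relaxed probe design. Probe set 93121_at carries none, and its change of -0.38 was not called (limma adjusted p = 0.397).

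Rps4x, the X-linked form of a small subunit protein, was called lower on 2 of its probe sets. On 162229_at the ratios were 0.779, 0.581, 0.635 and 0.697 in repeated TCE and 1.01, 0.994, 1.02 and 0.805 in repeated oil (-0.51 ± 0.14, limma adjusted p = 0.0305). On 100780_at the change was -0.43 ± 0.13 (adjusted p = 0.0441). The call on 162229_at was kept in 3 of the 8 fits that left out 1 array (lost without oil replicate 1, 2 or 3 or TCE replicate 2 or 3, up to 0.0895) and lost with median centring (0.12) and the replicate block (0.0609). The call on 100780_at was kept in 1 of 8, without TCE replicate 1, and lost in the others (up to 0.103), with median centring (0.19), the replicate block (0.0694) and the Gapdh covariate (0.063). The other Rps4x probe sets, 161654_r_at, 162244_r_at and 162498_r_at, lay above 0, at 0.83, 0.65 and 1.17, with standard errors of 0.63, 0.51 and 0.52 and no call. These 3 carry the suffix that marks probe sets made under relaxed design rules, and their errors are more than 3 times those of the called pair. Of the 10 mouse genes with several probe sets, 6 had all of them on the same side of 0 after repeated doses and 4 did not.

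The remaining mouse members were not called after repeated doses. They include subunits that read slightly low with tight intervals: Rplp0, the base of the stalk that binds elongation factors, at -0.36 ± 0.14, Rps18 at -0.39 ± 0.13 and Rpl8 at -0.38 ± 0.15. Rpsa, which is also known as the laminin receptor, was at -0.25 ± 0.13. Rpl7a at -0.24 ± 0.15 was similar. At the far ends lay probe sets with wide errors, Rpl38 99626_i_at at -1.86 ± 0.65 (adjusted p = 0.0784) and Rps15 at 1.27 ± 0.82 (0.344). For 26 of the 49 members the 95% interval lay wholly within 1 log2 unit of 0, against 44.0% of all probe sets, so for these a doubling or a halving falls outside the interval. Between -0.55 and 0.51 lay the probe sets of Rpl6, Rpl19, Rpl32, Rpl37a, Rpl39, Rpl41, Rps3a1, Rps7, Rps10, Rps13, Rps14, Rps20, Rps27 and Rps29. The last of the members were Rpl35a at 0.96 ± 0.58, Rpl39l at 0.63 ± 0.59 and Rps27l at -0.57 ± 0.48. Rps4l was at -0.80 ± 0.33 on 98149_s_at (limma adjusted p = 0.133), the lowest value of any small subunit probe set, and at 0.13 ± 0.36 on 98148_at.

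After 1 dose in mouse, 1 member was higher and 1 lower of 49, against 4.16% higher and 4.14% lower of all probe sets. The member median was -0.14, against -0.09 over all, and 32 members lay below 0 (65.3%), as many as after repeated doses. Of all probe sets 57.4% lay below 0 after 1 dose. Small subunit members lay below 0 in 21 of 27 cases, with a median of -0.21, and large subunit members in 11 of 22, with a median of 0.02. No small subunit member was called.

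Rpl13a was the rise. It is a large subunit protein whose introns hold small nucleolar RNAs, and in human monocytes it can leave the ribosome to silence inflammatory messages. Probe set 92834_at, its sole member here, read 2.27, 2.21, 2.12 and 1.66 in single TCE and 0.904, 0.858, 1.1 and 1.23 in single oil. Every TCE array was above every oil array. The mean was 2.06 ± 0.276 in TCE and 1.02 ± 0.172 in oil (SD, n = 4 each), a change of 1.02 ± 0.17, or 2.03-fold (SE, limma adjusted p = 0.00312). The call held in all 8 fits that left out 1 array (0.00431 to 0.0142), after median centring (0.00133) and with the Gapdh value as a covariate (0.0202). After quantile normalization the change was 0.85 with an adjusted p of 0.111. The 1 single TCE array with a Gapdh 3' minus 5' value near 0 (0.09) read 2.21. Fitted with that TCE array alone, the change was 1.13 (adjusted p = 0.147).

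In the repeated-dose arrays, a separate set from mice of 10 weeks rather than 8, Rpl13a was not high. It read 0.967, 0.730, 0.849 and 0.899 in repeated TCE and 1.28, 0.958, 1.03 and 0.974 in repeated oil, where the groups overlap. The change was -0.30 and was not called. The effect of repeated doses minus the effect of 1 dose was -1.32 ± 0.23 (limma adjusted p = 0.0253), and Rpl13a was the only member of 49 called in that test, in which 0.668% of all probe sets were called lower and 0.209% higher. Adjusted p was above 0.05 without single oil replicate 1, single TCE replicate 1 or 3, or repeated TCE replicate 2, at most 0.0657. Rps28 (-0.83 ± 0.21, adjusted p = 0.0634), Rpl7 97695_s_at (-0.77 ± 0.22, 0.0923) and Rpl10a 161327_f_at (-1.18 ± 0.36, 0.102) came next and did not pass. For these, a difference between the schedules is not shown.

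Rpl37a, a zinc-binding large subunit protein, was the fall after 1 dose. It read 0.408, 0.614, 0.531 and 0.523 in single TCE and 0.935, 1.1, 1.06 and 0.732 in single oil, separate groups with a change of -0.88 ± 0.22 (limma adjusted p = 0.027). The call was lost in 6 of the 8 fits that left out 1 array (up to 0.0885, without single TCE replicate 1, 3 or 4 or single oil replicate 1, 2 or 3). It was also lost with the Gapdh value as a covariate (0.329). Rps20, a small subunit protein, ranged widely, at 0.957, 0.335, 0.676 and 0.292 in single TCE and 0.953, 1.27, 1.04 and 0.962 in single oil (-1.06 ± 0.34, adjusted p = 0.0728).

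**Figure D2:**
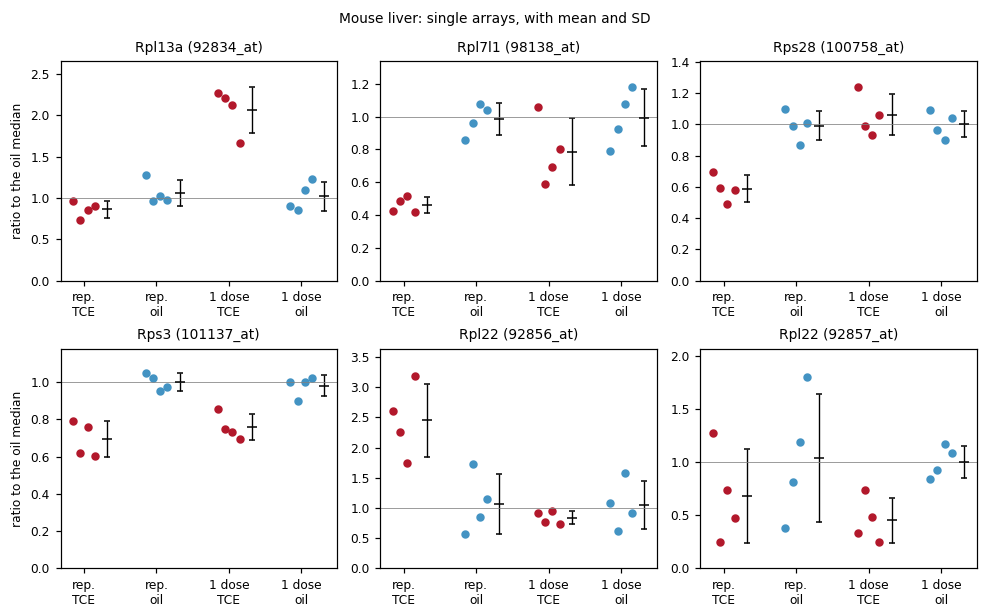
Ratio to the oil median on each mouse array for 6 ribosomal protein probe sets, with the mean and SD at the right of each group (n = 4), TCE red and oil blue, and a separate vertical scale in each panel. Rpl13a is high after 1 dose (1.66 to 2.27), Rpl7l1 and Rps28 are low after repeated doses (0.418 to 0.517 and 0.492 to 0.697), and the Rpl22 probe sets disagree.

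In rat liver the ribosomal protein messages were close to level on the deposited scaling. After repeated doses 1 of 60 probe sets rose and none fell, against a background of 2.16% higher and 0.652% lower. At an unadjusted p under 0.05 there were 7 higher and 4 lower, against 1038 higher and 615 lower of all 8740 probe sets. The median change was 0.09 over the members and 0.04 over all probe sets, and for 52 of 60 members the 95% interval lay within 1 log2 unit of 0, against 43.6% of all. After 1 dose limma called none of 60, with 1.21% higher and 0.503% lower over all probe sets. At an unadjusted p under 0.05 there were 2 higher and 6 lower, against 1096 higher and 581 lower of all 8740. The median was -0.02 over the members, against 0.14 over all, and 50 of 60 intervals lay within 1 unit, against 42.6% of all. After median centring the member median was 0.05 for repeated doses and -0.15 for 1 dose, and after quantile normalization 0.03 and -0.16.

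Rpl4, a large subunit protein that lines the exit tunnel, was the rat call. It read 1.68, 1.58, 2.23 and 1.73 in repeated TCE and 1.02, 1.16, 0.692 and 0.978 in repeated oil. The groups did not overlap, and the change was 0.92 ± 0.23 (limma adjusted p = 0.0442). It was called in 1 of the 8 fits that left out 1 array (adjusted p 0.0367 to 0.104, lost without any TCE replicate or oil replicate 1, 3 or 4), and not after median centring (0.0632) or with the Gapdh value as a covariate (0.225). After 1 dose the same probe set gave 1.20, 0.807, 1.6 and 1.5 in TCE and 1.03, 1.01, 0.855 and 0.987 in oil, which overlap.

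Next to Rpl4, 3 rat members stood nearest to a call after repeated doses. Rpl14, a large subunit protein, read 1.30, 1.68, 2.04 and 1.58 in repeated TCE and 1.05, 0.884, 0.946 and 1.32 in repeated oil (0.65 ± 0.20, limma adjusted p = 0.0847). Rps15, which lies near the decoding site, was tight at 0.735, 0.704, 0.738 and 0.733 in repeated TCE and 0.958, 1.04, 0.937 and 1.05 in repeated oil (-0.45 ± 0.14, adjusted p = 0.0884). Its other probe sets gave -0.29 and -0.14. Rpl11, which binds Mdm2 when ribosome assembly stalls, was at -0.40 ± 0.16 (adjusted p = 0.186). Its other probe set lay on the other side of 0, at 0.21 ± 0.16. None of these passed the threshold.

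After 1 dose the smallest rat p-value belonged to Rplp0, at 0.757, 0.517, 0.788 and 0.658 in single TCE and 0.994, 1.01, 0.819 and 1.08 in single oil. The groups were separate by a narrow gap and the change of -0.53 ± 0.17 was not called (adjusted p = 0.123). Rpl36 at -0.59 ± 0.23 and Rps29 at -0.55 ± 0.21 were next on the low side. Rpl30, a small large-subunit protein, had the widest range, at 2.85, 1.09, 6.92 and 5.64 in single TCE and 1.26, 2.85, 0.744 and 0.673 in single oil. Its change of 1.52 ± 0.57 was not called (adjusted p = 0.164), and after repeated doses it was 1.38 ± 0.57. Rps6, the substrate of the S6 kinases, read 0.45 ± 0.20 after repeated doses and 0.48 ± 0.20 after 1 dose, with no call in either. The probe sets of the other rat members lay between -0.62 and 1.0 after repeated doses and between -0.59 and 0.71 after 1 dose. Their extremes after repeated doses were Rpl3l at -0.62 ± 0.59 and Rpl19l4 at 1.0 ± 0.64, both with wide errors. They are Rpl3, Rpl3l, Rpl5, Rpl6, Rpl7a, Rpl17, Rpl18, Rpl19, Rpl19l4, Rpl21, Rpl22, Rpl23, Rpl24, Rpl26, Rpl27, Rpl27a, Rpl31, Rpl35, Rpl35a, Rpl36al1, Rpl39, Rpl41, Rps3, Rps3a, Rps9, Rps10, Rps16, Rps23, Rps27l and Rpsa. Of the 16 rat genes with several probe sets, 11 had all of them on the same side of 0 after repeated doses and 13 after 1 dose.

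**Figure D3:**
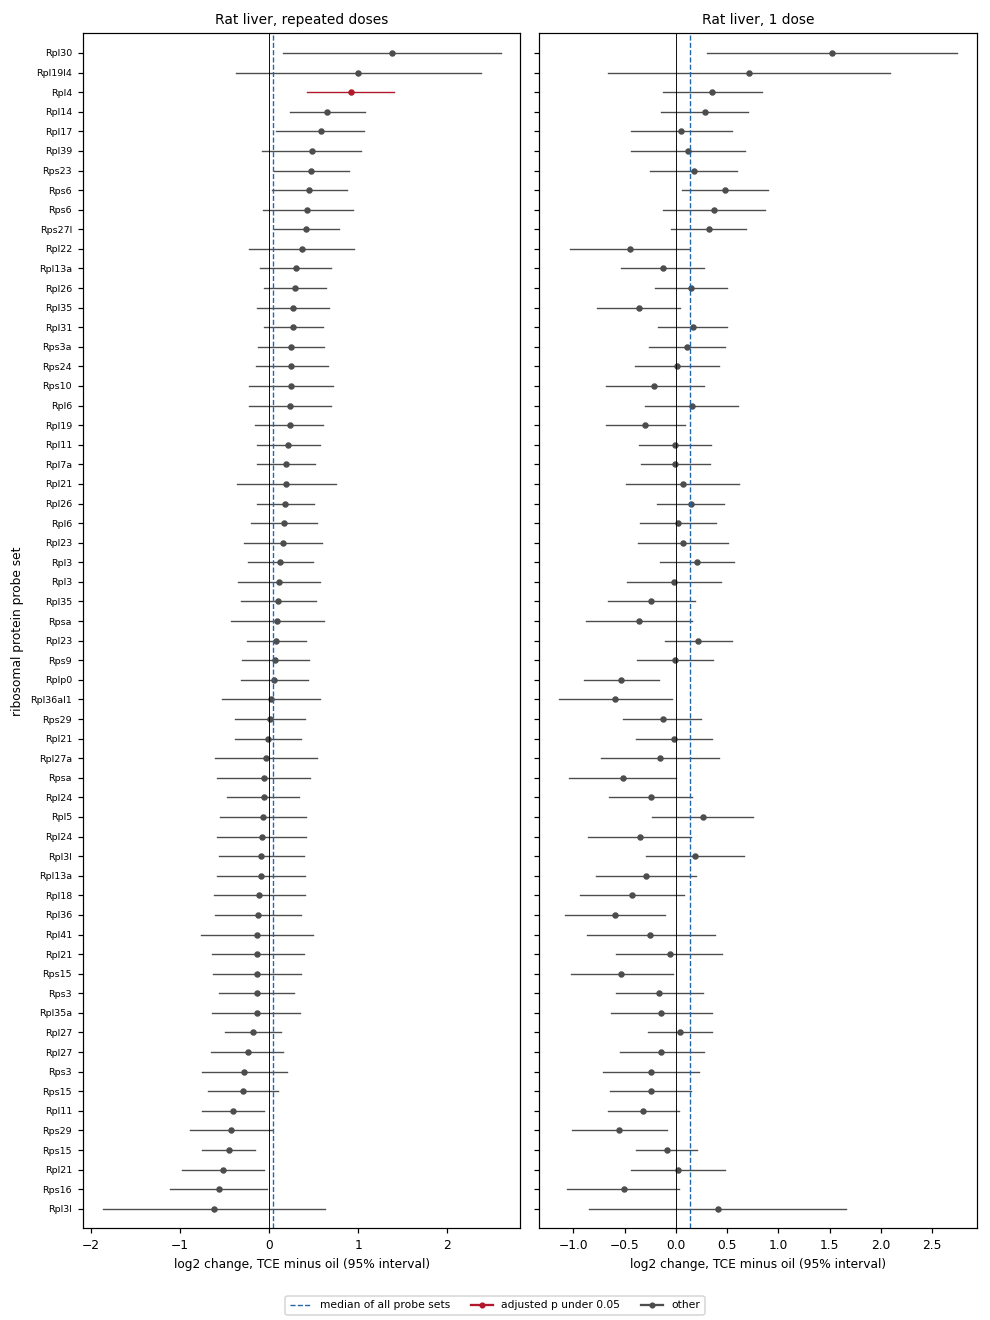
Log2 change with TCE relative to oil for the 60 rat ribosomal protein probe sets, after repeated doses (left) and after 1 dose (right), with 95% limma intervals and symbols repeated where a gene has several probe sets. Rpl4 on the left (0.92) is the only red point. Most intervals cover 0, and the dashed median of all probe sets is 0.04 on the left and 0.14 on the right.

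The difference between schedules was not called for any rat member, nor for any rat probe set (0% of 8740). At an unadjusted p under 0.05, 2 members were higher and none lower, against 353 higher and 465 lower of all 8740 probe sets. The member median of this difference was 0.13, against -0.06 over all probe sets, and 28.3% of members lay below 0, against 53.6% of all. Rplp0 led with 0.59 ± 0.25 (limma adjusted p = 0.488), with 0.06 after repeated doses and -0.53 after 1 dose. Rpl35, Rpl22 and Rpl19 followed at 0.63, 0.82 and 0.52.

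Rat members also shifted together from array to array within a group. In repeated TCE, replicate 3 had a member median of 0.39, with 10 of 60 members below 0. That array also had the highest Gapdh 3' minus 5' value in rat, 2.07, and a beta-actin value of 1.90. Without it, the median change after repeated doses was 0.00 in place of 0.09. In single TCE, replicate 2 had a member median of -0.25, with 48 of 60 below 0 and a Gapdh value of -0.66. In single oil, replicate 3 had 52 of 60 members below 0 and replicate 2 had 8 of 60, with medians of -0.18 and 0.10. In mouse, the repeated TCE arrays had member medians between -0.37 and -0.14, and the repeated oil arrays between -0.04 and 0.04. Of those TCE arrays, the one with a Gapdh value of -0.36 had the median nearest 0, -0.14, and the arrays at 1.71, 1.30 and 1.48 had -0.26, -0.27 and -0.37. The order was the other way in 2 other mouse groups. In single TCE the array with the lowest Gapdh value, 0.09, had the lowest member median, -0.15, and in repeated oil the array with the highest, 1.46, had the highest, 0.04.

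**Figure D4:**
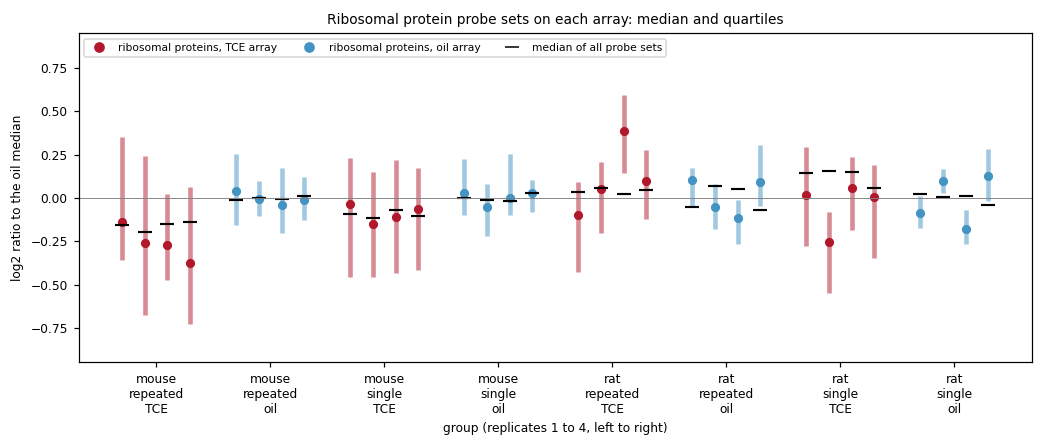
Median (points) and quartiles (bars) of the log2 ratio over the ribosomal protein probe sets on each of the 32 arrays, TCE red and oil blue, with black dashes for the median of all probe sets. Mouse repeated TCE arrays lie at -0.37 to -0.14 beside oil arrays at -0.04 to 0.04. In rat the arrays of a group spread from -0.10 to 0.39 in repeated TCE and from -0.18 to 0.12 in single oil.

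The difference between species was tested on the 16 shared symbols within 3056 genes common to both arrays, each gene represented by its tightest probe set. After 1 dose the mouse effect exceeded the rat effect for Rpl13a alone, by 1.15 ± 0.24 (limma adjusted p = 0.00522), with 1.02 in mouse and -0.13 in rat. The background was 1.51% of genes higher in mouse and 2.72% lower. The rat probe set for Rpl13a read 1.14, 0.722, 0.811 and 1.01 in single TCE and 0.982, 1.1, 0.883 and 1.02 in single oil, and overlapped. A second rat probe set gave 0.780, 0.652, 1.04 and 0.752 in single TCE and 0.943, 1.06, 0.781 and 1.14 in single oil, so neither showed a rise. The call held in all 16 fits that left out 1 array, with adjusted p at most 0.0148, and was lost after quantile normalization (0.225). Rplp0 was next at 0.59 ± 0.21 (adjusted p = 0.102), then Rpl19 at 0.48 ± 0.22 (0.212), Rps27l at -0.57 ± 0.51 and Rpl35a at 0.64 ± 0.64.

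After repeated doses the difference was called for Rps24, at -0.76 ± 0.23 (limma adjusted p = 0.0287), with -0.51 in mouse and 0.25 in rat. The mouse value came from 97696_r_at, whose suffix marks relaxed probe design. The background was 8.51% of genes lower in mouse than in rat and 2% higher. The rat probe set for Rps24 read 0.952, 1.43, 1.29 and 1.14 in repeated TCE and 0.996, 1.09, 1 and 0.908 in repeated oil. It was called in 10 of 16 fits that left out 1 array, with adjusted p up to 0.0687 (lost without mouse oil replicate 1 or 2, mouse TCE replicate 1 or 2, rat oil replicate 4 or rat TCE replicate 2), and not after median centring (0.122). Rpl13a (-0.59 ± 0.24), Rpl19 (-0.50 ± 0.22), Rpl22 (0.91 ± 0.43) and Rpl7a (-0.42 ± 0.20) followed with no call. Over the 16 genes the median difference was -0.30 after repeated doses, against -0.23 over all genes, and 0.14 after 1 dose, against -0.19.

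**Figure D5:**
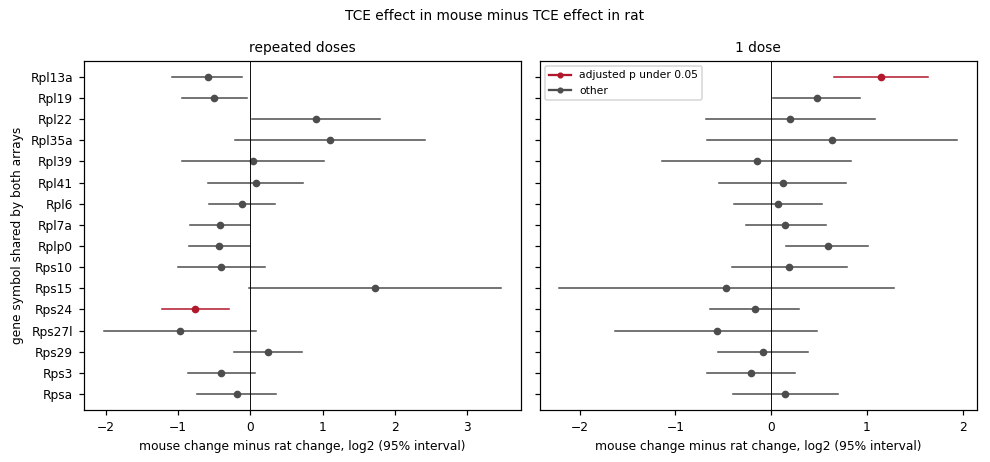
Mouse effect minus rat effect of TCE on the log2 scale for the 16 ribosomal protein symbols on both arrays, after repeated doses (left) and after 1 dose (right), with 95% limma intervals. Red marks an adjusted p under 0.05, which Rps24 reached on the left (-0.76) and Rpl13a on the right (1.15).

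Other genes of ribosome making and translation were counted in lists picked by name for this purpose. In mouse after repeated doses, none of 20 probe sets of other TOP messages rose and 4 fell, among them Eef1b2 (-1.12), a subunit of the elongation factor exchange complex, and Npm1 (-0.53), a nucleolar chaperone. Of 44 ribosome biogenesis probe sets 8 fell and none rose, with a median of -0.41 against -0.15 over all. They included Ubtf (-1.24), which activates ribosomal RNA transcription, and Mybbp1a (-1.70), a nucleolar protein. Of 53 initiation factor probe sets 9 fell and none rose, Eif4a1 (-1.14), the helicase of cap-dependent initiation, among them. Eif4b (-1.17 on 161342_r_at) is on both this list and the TOP list and was counted as a fall in each. Of 76 mitochondrial ribosomal protein probe sets 1 rose and 2 fell, and Mrpl2 was called in both directions (1.24 on 161910_at, -0.67 on 95067_at). None of the 3 S6 kinase probe sets was called. Eef1b2, Mybbp1a, Eif4a1 and the rise of Mrpl2 were called in all 8 fits that left out 1 array and after median centring. The called probe sets of Eef1b2 (96624_r_at), Mybbp1a (98341_f_at), Eif4a1 (92816_r_at) and Eif4b carry a suffix that marks possible cross-hybridization or relaxed probe design. Npm1 was lost after centring (adjusted p = 0.0947). Ubtf was called in 2 of 8 fits, without TCE replicate 1 or 4, and lost with centring (0.0688), the replicate block (0.0718) and the Gapdh covariate (0.0824), and the fall of Mrpl2 was called in 1 of 8, without TCE replicate 1, and lost with centring (0.103). After quantile normalization none of these named genes passed. The background for these lists in either direction was 10.7% of all probe sets, with 8.48% lower and 2.24% higher.

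After 1 dose in mouse, the calls on these lists lay mostly on the high side. Of all probe sets in this comparison 8.3% were called, 4.16% higher and 4.14% lower. Pabpc1, the poly(A)-binding protein and itself a TOP message, rose by 1.47 ± 0.22 (limma adjusted p = 0.00184) and was the only call among 20 TOP probe sets. Of 44 biogenesis probe sets 3 rose and 1 fell. Nop56 (1.11) and Nhp2 (0.92), proteins of small nucleolar ribonucleoproteins, and the nucleolar protein Ncl (0.82) rose, and Surf6 (-2.40) fell. Of 53 initiation factor probe sets 6 rose, with Eif5 at 1.15 and Eif3b at 0.62, and 1 fell. Of 76 mitochondrial ribosomal protein probe sets 5 rose, with Mrpl45 at 0.96, and 1 fell. With the Gapdh value as a covariate, Nop56 (adjusted p = 0.0935), Ncl (0.124), Surf6 (0.246), Eif5 (0.189), Eif3b (0.073) and Mrpl45 (0.101) did not pass, and Pabpc1 (0.014) and Nhp2 (0.0307) did. Nhp2 was lost without single oil replicate 3 (0.0559), and after quantile normalization Pabpc1 (0.0195) alone of these 8 named genes passed.

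In rat, where 1 ribosomal protein probe set rose, a few of these genes rose too. Rps6kb1, the kinase of Rps6, was higher by 0.84 after repeated doses (limma adjusted p = 0.0135) and by 0.87 after 1 dose (0.021), on 1 of its 2 probe sets. Of 28 initiation factor probe sets 2 rose in each schedule, with Eif3m at 1 after repeated doses and 1.37 after 1 dose. Of 21 biogenesis probe sets 2 rose in each, with Gnl3 at 1.14 after repeated doses and Ddx21 at 1.21 after 1 dose. The called probe sets of Gnl3 and Ddx21 carry a suffix that marks possible cross-hybridization or relaxed probe design. Mitochondrial ribosomal proteins had 2 of 19 higher after repeated doses and 1 after 1 dose. The other TOP messages had none of 15 called after repeated doses and 1 after 1 dose, Hnrnpa1 at 0.78. No member of these rat lists was called lower. Hnrnpa1 was called in 1 of the 8 fits that left out 1 array, without single oil replicate 2, and lost with median centring (adjusted p = 0.0797) and the replicate block (0.0762). Ddx21 was called in 4 of 8 (lost without single oil replicate 2 or 4 or single TCE replicate 1 or 4) and Rps6kb1 after 1 dose in 3 of 8 (lost without single oil replicate 2 or 4 or single TCE replicate 1, 2 or 4). Rps6kb1 after repeated doses was lost without repeated oil replicate 1 (0.0523). With the Gapdh covariate the repeated-dose calls on Eif3m (0.0698) and Gnl3 (0.0678) were lost. After quantile normalization none of these named rat genes passed. Over all rat probe sets, 2.81% were called after repeated doses (2.16% higher, 0.652% lower) and 1.72% after 1 dose (1.21% higher, 0.503% lower).

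Some lists of liver cell markers shifted between TCE and oil in both species. In mouse repeated TCE the mean log2 ratio over 10 hepatocyte marker probe sets was -0.67 to -0.31 per array, against -0.14 to 0.12 in repeated oil. Of these 10, 3 were called lower, and the changes of the 10 ran from -1.72 to 2.0. Over 13 macrophage marker probe sets the mean was -0.54 to -0.26 in repeated TCE and -0.58 to 0.14 in repeated oil, with 3 called lower. Over 6 endothelial probe sets it was -0.60 to -0.26 and -0.21 to 0.19, with 1 called lower. Of all mouse probe sets, 8.48% were called lower and 2.24% higher after repeated doses, and the median change was -0.15. In mouse single TCE the hepatocyte mean was -0.63 to -0.29, against -0.20 to 0.11 in single oil, and 2 were called lower. After 1 dose 4.14% of all mouse probe sets were called lower and 4.16% higher, with a median change of -0.09. The lymphocyte, cholangiocyte and cycling cell lists had no calls in either mouse schedule. In rat, the macrophage mean was -1.26 to -0.48 in repeated TCE, against -0.35 to 0.27 in repeated oil, with no marker called. Of the remaining lists, erythroid markers had 1 of 2 lower in both mouse schedules. Stellate and matrix markers had 1 higher and 2 lower of 10 in repeated and 2 lower in single mice, and 1 of 15 higher in repeated rats. Their mean was -1.5 to -0.64 in mouse single TCE and -0.54 to 0.55 in mouse single oil. In rat, 1 of 2 endothelial probe sets was lower after repeated doses and 3 of 24 hepatocyte probe sets were higher after 1 dose. The endothelial mean was -0.91 to -0.55 in rat repeated TCE and -0.49 to 0.13 in repeated oil. The hepatocyte mean was 0.27 to 0.65 in rat single TCE and -0.17 to 0.22 in single oil. Of all rat probe sets, 2.16% were called higher and 0.652% lower after repeated doses, and 1.21% and 0.503% after 1 dose. Exocrine pancreas markers had no calls in the 4 comparisons of TCE with oil. Their mean per array was -1.73 to 3.82 in mouse single TCE and -0.96 to 2.89 in mouse single oil, and -0.16 to 0.50 in rat single TCE and -0.31 to 5.54 in rat single oil. With each rat single-dose array left out in turn, the limma fit again called 0 ribosomal protein probe sets. The fit to all arrays had called none either, so this count could hardly change and decides nothing about the pancreas markers. The part of cell composition in the ribosomal protein values was not tested.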

How the data were processed

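Liver polyA RNA was hybridized to Affymetrix arrays, 16 from mouse and 16 from rat. The submitters' processing notes name MAS5. The deposited values are ratios, since the 4 oil arrays of each schedule and species have a median of 1 for nearly every probe set. The sources used here do not give how the authors scaled the arrays. Arrays have no read depth, so their number limits the precision. Log2 ratios went into limma 3.58.1 (R 4.3.3, lmFit and eBayes), each species' 16 arrays together, a mean for every group. P-values were adjusted by Benjamini-Hochberg over all probe sets except the 66 mouse and 59 rat controls. Tables and figures were made with Python 3.11.15. Symbols came from the platform annotation. A probe set may also bind messages of paralogues or pseudogene copies, and 15 mouse and 28 rat members carry a suffix that marks this or relaxed probe design. Members, gene lists and tests were chosen with earlier results of these data known. Called members whose TCE and oil arrays did not overlap were named, otherwise those with the smallest p. Same-numbered arrays shared little deviation (correlations of their deviations -0.17 to 0.08), so replicate numbers were not treated as pairs. In mouse single, though, 3 of 4 TCE arrays correlated best with the oil array of their own number (pair correlations 0.05 to 0.08). The fit was tested on simulated data with the within-group SD of each probe set. In the mouse repeated comparison, 67 random probe sets were changed by 0.5, 67 by 1 and 66 by 2 on the log2 scale, among 12420. The fit recovered 2.985%, 23.88% and 66.67% of them, in that order. Fewer probe sets were changed than were called in the real comparison, and members were not simulated apart. The rates therefore do not describe how well changes of members are found. Alternatives were other scalings, log2(ratio + 1), array weights, only the 8 arrays of a comparison, a replicate block, the Gapdh value, leaving out arrays, and 1 mean per gene.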

Additional observations from a re-analysis of the deposited data

Results flagged for a closer look

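Differences between groups were called for Rpl13a between mouse schedules (-1.32, repeated minus single), for Rpl13a between species after 1 dose (1.15, mouse minus rat) and for Rps24 between species after repeated doses (-0.76, mouse minus rat). Of 90 groups of 4 arrays examined, 7 held an array far from the other 3, and chance gives about 1 in 20. Among the members, Rps4x read 0.805 on 162229_at in mouse repeated oil replicate 4 and 0.878 on 100780_at in mouse repeated oil replicate 3, each low beside the rest of its group. In rat repeated TCE, Rps15 read 0.704 in replicate 2, just below a very tight group, and Rpl22 read 1.81 in replicate 3, high beside the others. The Gapdh 3' minus 5' value was 0.09 in mouse single TCE replicate 2, far below the other TCE arrays, and 1.46 in mouse repeated oil replicate 1, far above the other oil arrays. The member median of -0.25 in rat single TCE replicate 2 lay far below the other arrays of that group.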

How the results depend on the processing

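Counts of called members moved with the scaling. For mouse repeated, 10 calls became 0 with quantile normalization, 3 with median centring, 1 with only the 8 arrays of the comparison, 5 with the replicate block, 0 without arrays with a Gapdh value above 1, 4 with probe sets averaged per gene, 20 with the several-symbol probe sets added after seeing the data, and 3 to 9 leaving out 1 array. For mouse single, 2 became 0 with quantile normalization, 1 with the Gapdh covariate, 0 without high-Gapdh arrays, 4 with several-symbol sets and 1 to 2 leaving out 1 array. For rat repeated, 1 became 0 with quantile normalization, median centring, only the 8 arrays, the replicate block, the Gapdh covariate and without high-Gapdh arrays, and 0 to 1 leaving out 1 array. For the mouse schedule difference, 1 became 0 with quantile normalization, the replicate block and without high-Gapdh arrays, 2 with array weights, and 0 to 1 leaving out 1 array. For species after 1 dose, 1 became 0 with quantile normalization and 2 with median centring or array weights. For species after repeated doses, 1 became 0 with quantile normalization, median centring or the gene mean, and 0 to 1 leaving out 1 array. The mouse repeated median of -0.25 was -0.07 with quantile normalization, -0.09 with median centring, -0.14 with log2(ratio + 1), -0.07 without high-Gapdh arrays and -0.31 to -0.20 leaving out 1 array. The mouse single median of -0.14 was -0.03, -0.04 and -0.07 in the first 3 of these, -0.08 with the Gapdh covariate, -0.21 without high-Gapdh arrays, -0.20 without suffix probe sets and -0.18 to -0.08 leaving out 1 array. Some single values changed sign: Rpl22 92857_at in mouse repeated (0.02 with the Gapdh covariate, 0.08 without high-Gapdh arrays), Rps4x 161654_r_at (-0.10 without them) and Rpl22 between species (-0.06 with the gene mean). Leaving out high-Gapdh arrays leaves 1 TCE array in each mouse schedule, assumed to vary like the rest. Calls on rat single and on the rat schedule difference were 0 throughout. Beyond these constructions the cause was not tested. With the oil groups fixed at 1, signal over background is unknown.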
